A study of Mus musculus with 4 samples.

Results

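The miR-106b, miR-93 and miR-25 cluster comprises 3 miRNA hairpins that lie next to each other and are transcribed with the gene Mcm7. Its members were taken by name, as the rows of the deposited table whose miRNA name was mmu-miR-106b-5p, mmu-miR-106b-3p, mmu-miR-93-5p, mmu-miR-93-3p or mmu-miR-25-3p. The species prefix is left out from here on. These 5 names held 293 of the 85704 different sequences in the table and were 5 of its 1029 miRNA names. miR-25-5p, the opposite arm of the miR-25 hairpin, was added for the comparison of arms and had 4 sequences.

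Short RNAs bound to the Ago proteins (R-sRNAs) were measured by Ago pull-down followed by small RNA sequencing (Ago-RP-Seq) in mouse brain, with 2 libraries from 2-month-old and 2 from 18-month-old mice. All mice were male C57BL/6J bought from Jackson, and neither age received a treatment or carried a transgene. Cortex and hippocampus were combined, so the values are averages over all cells of both regions. The labels number the libraries of an age as replicates and name no animals, so the p-values given here measure the spread between libraries, which may be technical.

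The cluster is a paralogue of the miR-17 to miR-92a cluster, and both are known for repressing cell cycle inhibitors and proapoptotic genes. Its host gene Mcm7 encodes a subunit of the helicase that unwinds DNA at replication origins. A hairpin is cut into a duplex of a 5p and a 3p arm, of which one arm (the guide) is mostly kept by Ago and the other (the passenger) is mostly lost. A guide finds its targets mainly through its seed, the bases from position 2 to 8, and the cluster has been studied in neural stem cells, where it promotes proliferation. The 6 bases from position 2 to 7 (the 6mer seed) also influence how toxic a short RNA is to cells when it enters the RISC.

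The hairpins lie on the minus strand of chr5:138165321-138165818 (GRCm38), a span of 498 bases, in the order Mir106b, Mir93, Mir25. Gaps of 126 and 118 bases separate them. All 3 sit in intron 13 of a protein-coding Mcm7 transcript of 15 exons. Mir93 and Mir25 also fall within exon 1 of a retained-intron transcript of the same gene. The hairpins are shown to place the arms in them, 5′ to 3′, from RefSeq (GRCm38.p6), with the bases of the mature arms in capitals.
Mir106b (chr5:138165737-138165818): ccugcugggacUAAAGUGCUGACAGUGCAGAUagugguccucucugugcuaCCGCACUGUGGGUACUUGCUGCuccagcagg
Mir93 (chr5:138165523-138165610): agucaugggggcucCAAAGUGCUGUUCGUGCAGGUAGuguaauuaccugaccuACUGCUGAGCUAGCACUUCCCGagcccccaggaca
Mir25 (chr5:138165321-138165404): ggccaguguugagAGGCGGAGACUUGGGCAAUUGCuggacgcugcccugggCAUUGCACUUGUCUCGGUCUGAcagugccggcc

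The mature arms follow from the same source, grouped by seed, because the seed links them to other miRNAs in the table. All 5 members and miR-25-5p were matched in RefSeq by name. Capitals mark the seed, positions 2 to 8.
miR-106b-5p: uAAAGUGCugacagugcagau
miR-93-5p: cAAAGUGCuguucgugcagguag
miR-25-3p: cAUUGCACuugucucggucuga
miR-106b-3p: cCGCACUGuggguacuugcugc
miR-93-3p: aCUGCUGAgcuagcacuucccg
miR-25-5p: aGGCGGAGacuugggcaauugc
miR-106b-5p and miR-93-5p share 1 seed and are identical at 16 bases of an alignment of their 21 and 23 bases. miR-25-3p has another seed. The passenger arms each have a seed of their own.

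Depth ranged from 9067007 to 11388999 reads per library, 3 reads were worth 0.263 to 0.331 CPM (reads scaled to the same total in each library), and 96.6 to 96.7% of CPM carried a miRNA name. Intervals and limits of detection in the text cover counting error only. miR-124-3p, which marks neurons, was the most abundant miRNA in the table, with 69405 to 107034 CPM.

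The cluster was dominated by its 3 guides. Values are given in the order 2-month-old replicates 1 and 2, then 18-month-old replicates 1 and 2. miR-93-5p was the most abundant member, with 1064, 952, 1111 and 1093 CPM. Both 18-month-old libraries lay above both 2-month-old ones, by less than the gap between the 2-month-old libraries. miR-106b-5p had 688, 501, 690 and 886 CPM. Its 18-month-old libraries also lay above the 2-month-old ones, but 1 library of each age was at nearly the same level. miR-25-3p had 588, 561, 629 and 565 CPM, and its ages overlapped.

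The passengers were much rarer. miR-106b-3p had 123, 102, 109 and 120 CPM, and miR-93-3p had 31.1, 29.8, 39.6 and 27.7 CPM. Both overlapped between the ages. By mean CPM over the 4 libraries the members ranked 105 (miR-93-5p), 131 (miR-106b-5p), 146 (miR-25-3p), 266 (miR-106b-3p) and 366 (miR-93-3p) among the 1029 miRNA names. Only the neighbours miR-106b-5p and miR-25-3p in this order overlapped in range, from 501 to 886 and from 561 to 629 CPM. The coefficient of variation over the 4 libraries was 22.7% for miR-106b-5p and from 5.29 to 16.4% for the other 4 members.

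**Figure D1:**
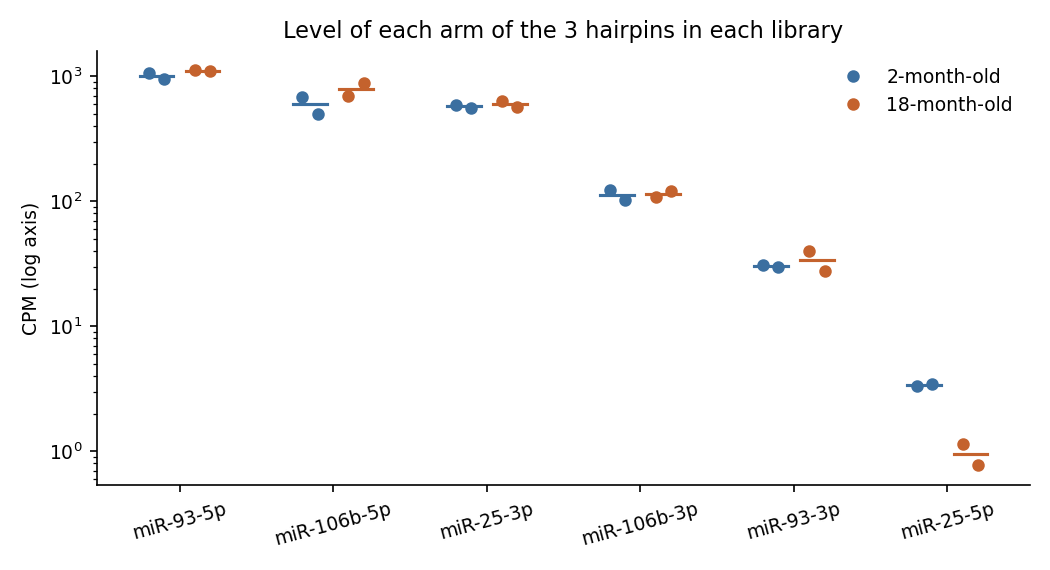
CPM of each arm of the 3 hairpins on a log axis, with 1 point per library and a line at the mean of the 2 libraries of an age. The 3 guides lie between 501 and 1111 CPM, miR-106b-3p and miR-93-3p between 27.7 and 123 CPM, and miR-25-5p at or below 3.42 CPM.

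None of the 5 members differed between the ages by the test across all miRNAs. The test was limma on log2(CPM + 1) over the 456 miRNAs whose mean reached 10 CPM, and a call was an unadjusted, two-sided p under 0.05. Of all 456 miRNAs 16.2% were called, 19 higher and 55 lower at 18 months, and 1 passed a Benjamini-Hochberg adjusted p of 0.05. The log2 change of miR-106b-5p was 0.41 (SE 0.26, limma, adjusted p = 0.442), a 1.33-fold difference in mean CPM. With 1 library left out it ranged from 0.18, without the second 2-month-old library, to 0.64, without the first. The 2 libraries of 2-month-old mice alone differed 1.37-fold for this miRNA. For the other 4 members the log2 changes were 0.13 (SE 0.20) for miR-93-5p, 0.12 (SE 0.27) for miR-93-3p, 0.05 (SE 0.20) for miR-25-3p and 0.03 (SE 0.22) for miR-106b-3p, with limma's adjusted p from 0.745 to 0.952. In tissue, fewer cells of a type and less of an RNA per cell cannot be told apart.

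All 5 changes were above 0, while the median over all tested miRNAs was -0.22 and 144 of 456 were above 0. Leaving out 1 library brought miR-25-3p, miR-93-3p and miR-106b-3p below 0. This median depends on the scaling. After scaling each library by its median ratio to the geometric mean over libraries it was -0.01, 39 miRNAs were called higher and 25 lower, and the members' median moved from 0.12 to 0.33. miR-106b-5p was then called (log2 change 0.62, SE 0.25, limma, adjusted p = 0.340), so that 1 of 5 members passed where 14.0% of all miRNAs did. edgeR and DESeq2, run on the whole reads recovered from the CPM, also called it and no other member in fits without a block (log2 changes 0.63 and 0.62, adjusted p = 0.329 and adjusted p = 0.296), where they called 13.6 and 15.1% of all miRNAs. On the CPM as deposited, miR-106b-5p and miR-93-5p were the 2 of 5 members whose 18-month-old libraries were both above the 2-month-old ones. This pattern was found in 12.1% of tested miRNAs on the same scale. Rescaling divided the 2-month-old libraries by 1.10 and 1.07 and the 18-month-old ones by 0.917 and 0.951. Which members and miRNAs overlap between the ages therefore depends on the scaling, and overlap was counted on the deposited CPM only.

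Summed over the 5 names, the cluster had 2494, 2145, 2579 and 2691 CPM. The mean difference was 316 CPM, with means of 2319 ± 247 (SD, n = 2) and 2635 ± 79.5 CPM (SD, n = 2). With 1 library left out the difference was 141 to 490 CPM, lowest without the second 2-month-old library and highest without the first. These values are on the CPM as deposited. Rescaling lowers both 2-month-old libraries and raises both 18-month-old ones, so the difference is larger on that scale. The ages did not overlap (exact two-sided permutation p = 0.333, the smallest that 2 libraries against 2 can give). Within the cluster miR-93-5p took 40.6 to 44.4% of CPM, miR-106b-5p 23.4 to 32.9% and miR-25-3p 21.01 to 26.1%. All 3 of these ranges were reached by libraries of both ages without separating them (exact permutation p = 0.667 each).

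On the CPM as deposited, marker miRNAs of other cell types moved with age in part. The 2 endothelial markers (miR-126a-3p and miR-126a-5p) summed to 11472 to 12243 CPM at 2 months and 5422 to 8990 CPM at 18 months. Only miR-126a-3p separated the ages, while miR-126a-5p had 3000, 2618, 2865 and 2501 CPM. The 5 immune cell markers summed to 3142 to 3569 and 2771 to 2902 CPM. miR-150-5p made up most of this sum (2654, 2832, 2344 and 2370 CPM), and miR-142a-5p was also lower in both 18-month-old libraries. After rescaling the log2 changes of these 2 miRNAs were -0.0062 and -0.15, against -0.22 and -0.36 as deposited. miR-142a-3p and miR-223-3p overlapped between the ages, and miR-155-5p was higher at 18 months (3.34, 3.25, 3.88 and 4.96 CPM). Sums for red blood cells (3 of 5 markers listed, with no row for miR-486a-5p and miR-486b-5p), neurons, oligodendrocytes and the choroid plexus overlapped between the ages. Within the neuron sum, miR-124-3p was lower in both 18-month-old libraries (104115, 107034, 98222 and 69405 CPM), while miR-128-3p and miR-9-5p overlapped. The log2 change of miR-124-3p was -0.35 (SE 0.25) as deposited and -0.14 after rescaling. How many of all miRNAs were lower in both 18-month-old libraries was not counted. The red blood cell markers miR-451a and miR-144-3p changed in opposite directions (log2 changes 0.25 and -0.92), each with overlap. Of all these markers only miR-126a-3p was called, lower at 18 months (log2 change -1.15, SE 0.43, limma, adjusted p = 0.266), and it was not called after rescaling (log2 change -0.94). The part of these cells in the values of the cluster was not tested.

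The hairpins differed in which arm Ago held. miR-93 and miR-106b were loaded mainly from the 5p arm and miR-25 from the 3p arm. The 5p arm made up 97.2, 97.0, 96.6 and 97.5% of the reads of miR-93, with no separation of the ages. For miR-25 the 3p arm exceeded the 5p arm 164-fold to 732-fold. miR-106b was the least one-sided of the 3, with 4.92 to 7.39 5p reads for each 3p read.

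For miR-106b the 5p share was 84.8, 83.1, 86.4 and 88.1%. The 95% Wilson intervals were 84.0 to 85.5% and 82.2 to 84.0% at 2 months, and 85.6 to 87.1% and 87.4 to 88.7% at 18 months. Both 18-month-old libraries were higher, by 3.26 percentage points on average (exact permutation p = 0.333, the smallest possible). Every interval at 18 months lay above those at 2 months, but the intervals cover counting error only. The arm shares of other hairpins were not compared between the ages, so how common such a separation was is not known. The spread between libraries of 1 age (SD 1.19 and 1.22 points, n = 2 each) was wider than counting error.

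miR-25-5p was rare, and came closest to the limit of detection in the 18-month-old libraries. It was read 35, 39, 12 and 7 times, which is 3.34, 3.42, 1.14 and 0.772 CPM, against a 3-read level of at most 0.331 CPM. Its share of the miR-25 hairpin was 0.565, 0.607, 0.180 and 0.136%, with Wilson intervals of 0.406 to 0.784% and 0.444 to 0.829% at 2 months and 0.103 to 0.315% and 0.0661 to 0.281% at 18 months. The ages did not overlap (exact permutation p = 0.333, the smallest possible), and the interval of every 18-month-old library lay below both at 2 months. As for miR-106b, these intervals cover counting error only and no other hairpins were compared. With a mean of 2.17 CPM it stood under the filter of 10 CPM. Without that filter its log2 change was -1.17 (SE 0.35, limma, adjusted p = 0.264), in a fit that called 12.1% of 1029 miRNAs.

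Reads of the members began almost always at the RefSeq 5′ end. Over the cluster 98.4% of CPM had it, against a median of 96.5% over the 362 miRNAs with reads that could be placed on RefSeq hairpins. By member the share was 99.3% for miR-106b-5p, 98.9% for miR-93-5p, 98.6% for miR-93-3p, 97.0% for miR-25-3p and 95.8% for miR-106b-3p. The seed was therefore that of RefSeq in 93.6% or more of the CPM of every member in every library.

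The 3′ ends were more varied, and each member had a pattern of its own. The 3 most abundant forms of each member are shown. For miR-93-5p the 2 forms with another last base were added because they were called in the test of sequences below. Bases that do not match the hairpin (a non-templated tail) are in capitals. All forms are written as sequenced, as DNA.
miR-93-5p, RefSeq form: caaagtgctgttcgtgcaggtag
miR-93-5p, 1 base shorter: caaagtgctgttcgtgcaggta
miR-93-5p, 2 bases shorter: caaagtgctgttcgtgcaggt
miR-93-5p, uridine in place of the last base: caaagtgctgttcgtgcaggtaT
miR-93-5p, adenosine in place of the last base: caaagtgctgttcgtgcaggtaA
miR-106b-5p, 1 base longer: taaagtgctgacagtgcagata
miR-106b-5p, RefSeq form: taaagtgctgacagtgcagat
miR-106b-5p, 1 base shorter: taaagtgctgacagtgcaga
miR-25-3p, RefSeq form: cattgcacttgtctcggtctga
miR-25-3p, 2 bases shorter: cattgcacttgtctcggtct
miR-25-3p, 1 base shorter: cattgcacttgtctcggtctg
miR-106b-3p, 1 base shorter: ccgcactgtgggtacttgctg
miR-106b-3p, 2 bases shorter: ccgcactgtgggtacttgct
miR-106b-3p, RefSeq form: ccgcactgtgggtacttgctgc
miR-93-3p, 1 base longer: actgctgagctagcacttcccga
miR-93-3p, RefSeq form: actgctgagctagcacttcccg
miR-93-3p, 1 base shorter: actgctgagctagcacttccc

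miR-25-3p was the most uniform member, with 69.8% of its CPM in the exact RefSeq form. miR-93-5p had 49.6% in that form and 35.7% in forms shorter at the 3′ end. For miR-106b-5p the RefSeq form of 21 nt held 29.5% and was second to a form with 1 more templated base, which held 32.2%, although the RefSeq form was the more abundant in 2 of the 4 libraries. An added adenosine at this position has the same letter as the hairpin, so this longer form may contain both. miR-106b-3p was mostly shortened (62.0% without a tail), and its RefSeq form held 19.99%. For miR-93-3p a form 1 base longer (38.9%) and the RefSeq form (36.9%) were each the more abundant in some of the libraries.

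**Figure D2:**
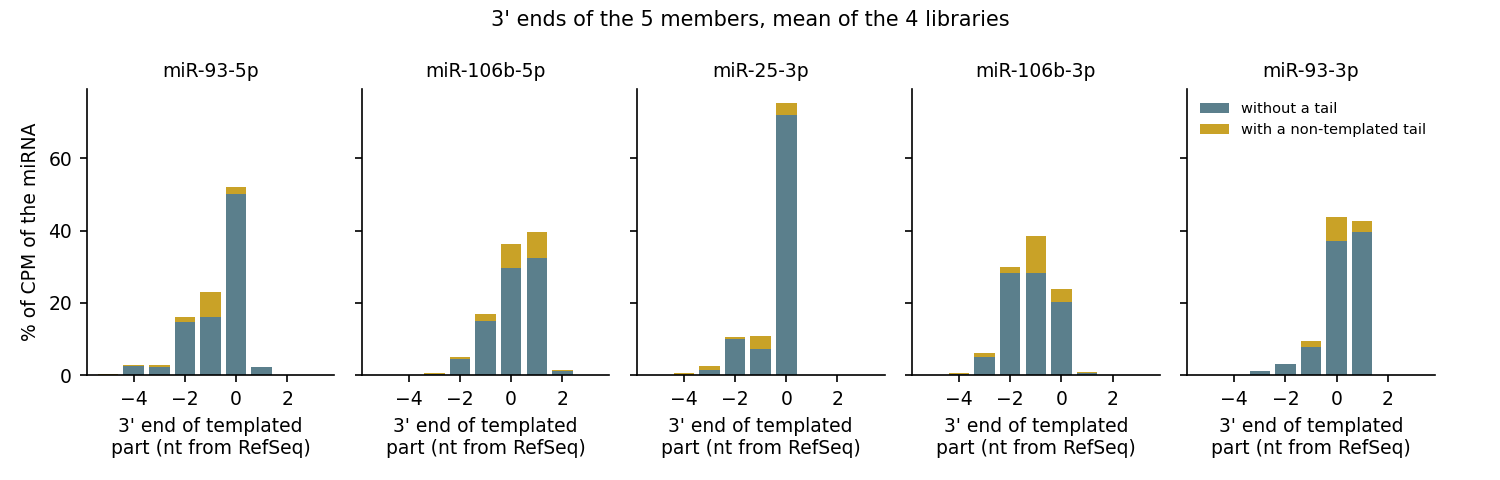
Share of the CPM of each member by where the templated part ends, in nt from the RefSeq 3′ end (0), with and without a non-templated tail, as the mean over the 4 libraries. miR-25-3p has 71.9% at 0 without a tail, miR-106b-5p has most at +1 (32.5% without a tail) and miR-106b-3p ends before 0 in most of its CPM.

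Length followed these ends. Reads of 22 nt made up 73.7% of miR-25-3p and reads of 23 nt 57.0% of miR-93-5p. miR-106b-5p was spread over 20, 21 and 22 nt with 15.4, 30.5 and 39.6%, and miR-106b-3p over the same lengths with 27.4, 30.4 and 31.4%. Reads with a non-templated tail made up 16.98% of miR-106b-5p, 16.9% of miR-106b-3p, 11.5% of miR-93-5p, 11.2% of miR-93-3p and 8.80% of miR-25-3p. The median over 362 miRNAs was 11.2%, with quartiles of 5.19 and 17.03%.

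Of the 293 sequences, 62 had a mean of at least 1 CPM and were tested with limma together with all other such sequences, 14287 in all. These 62 held 89.5 to 98.2% of the CPM of their members. Of the 62 sequences 3 (4.84%) were called at an unadjusted p under 0.05, against 10.1% of all tested sequences. All 3 were higher at 18 months, and none passed the adjustment (lowest adjusted p = 0.394, limma), while 6 of all sequences did. In 17 of 62 sequences (27.4%) both 18-month-old libraries lay above both 2-month-old ones, against 20.5% of all tested sequences.

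The sequences that were called belonged to miR-93-5p and miR-106b-5p. The miR-93-5p form ending in uridine had 31.4, 25.3, 47.4 and 62.5 CPM. Both 18-month-old libraries were higher, and the log2 change was 0.93 (SE 0.32, limma, adjusted p = 0.394). The miR-93-5p form ending in adenosine had 20.03, 18.3, 39.4 and 30.8 CPM, again without overlap, with a log2 change of 0.83 (SE 0.31, limma, adjusted p = 0.434). The RefSeq form of miR-106b-5p had 164, 153, 238 and 259 CPM, also without overlap, and a log2 change of 0.65 (SE 0.28, limma, adjusted p = 0.485). When the second 2-month-old library was left out none of the member sequences was called. The miR-106b-5p form also lost its call with DESeq2, a pseudocount of 5, no filter or limma without trend, and the form ending in adenosine lost its call without a filter. With 1 library left out, the uridine form kept its call without either replicate 1 (log2 changes 1.08 and 1.12) and lost it without either replicate 2 (0.78 and 0.73). The adenosine form kept its call only without the second 18-month-old library (1.01), and the miR-106b-5p form lost it whichever library was left out (0.58 to 0.71).

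The more abundant forms of the same miRNAs were not called. The RefSeq form of miR-93-5p had 576, 513, 463 and 541 CPM, overlapping between the ages, with a log2 change of -0.12 (SE 0.27). Its form 1 base shorter had 166, 125, 223 and 160 CPM, and that 2 bases shorter had 137, 134, 189 and 155 CPM. The ages overlapped for the first and not for the second, and the log2 changes were 0.39 (SE 0.31) and 0.33 (SE 0.29). The longest of the main miR-106b-5p forms had 225, 117, 209 and 340 CPM, which differed as much between libraries of 1 age as between the ages (log2 change 0.71, SE 0.39, limma, adjusted p = 0.569). The shortest had 112, 94.1, 108 and 96.3 CPM.

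**Figure D3:**
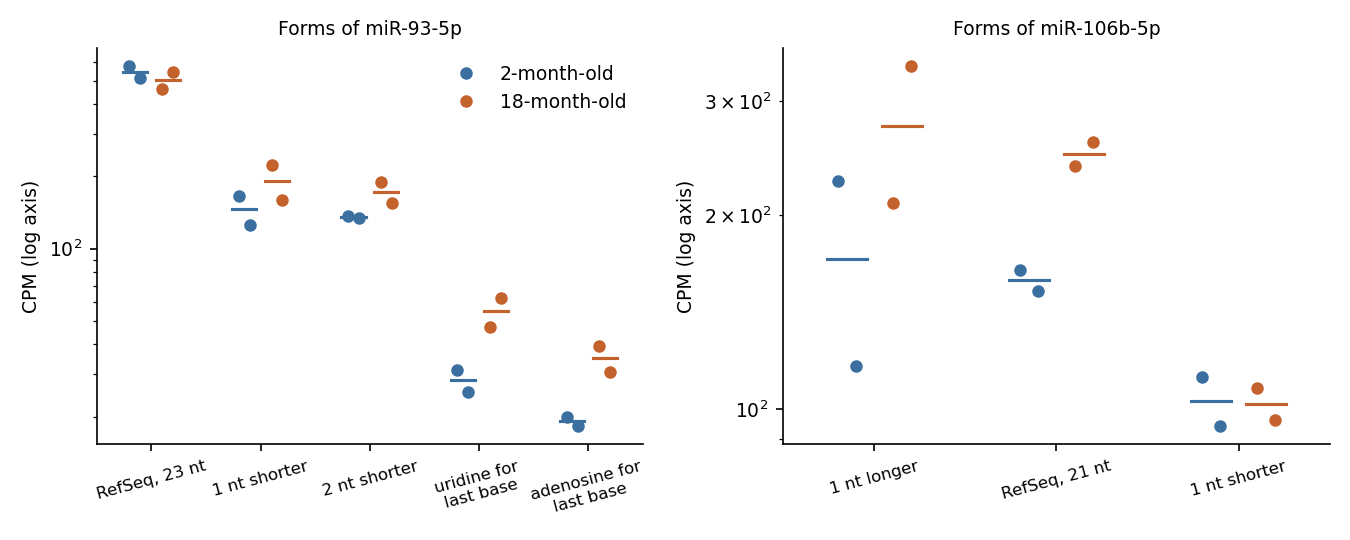
CPM of the main forms of miR-93-5p (left) and miR-106b-5p (right) on log axes, with 1 point per library and a line at the mean of an age. The 2 miR-93-5p forms with another last base and the RefSeq form of miR-106b-5p have both 18-month-old libraries above both 2-month-old ones, while the RefSeq form of miR-93-5p (463 to 576 CPM) overlaps between the ages.

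None of the leading forms of the other members was called. The RefSeq form of miR-25-3p had 420, 402, 428 and 386 CPM (log2 change -0.02, SE 0.27). Its form 2 bases shorter had 53.2, 46.4, 74.9 and 58.7 CPM, with both 18-month-old libraries higher (log2 change 0.41, SE 0.31, limma, adjusted p = 0.687). For miR-106b-3p the form 1 base shorter had 30.9, 27.7, 26.2 and 40.6 CPM, and the form 2 bases shorter had 35.5, 29.0, 28.7 and 25.04 CPM. The ages overlapped for the first, while for the second both 18-month-old libraries were lower (log2 change -0.25, SE 0.31). The longer form of miR-93-3p had 10.3, 12.8, 17.02 and 9.71 CPM and its RefSeq form 13.5, 8.08, 13.6 and 12.02 CPM, which differed as much within an age as between them.

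Added up over all its tailed forms, miR-93-5p carried a tail in 9.72, 9.53, 12.9 and 13.7% of its CPM. Both 18-month-old libraries were higher, by 3.67 points on average (exact permutation p = 0.333, the smallest possible). Over 362 miRNAs the median of this difference was 0.257 points, with quartiles of -0.946 and 1.51. Tails of uridine alone made up 4.71, 3.78, 5.67 and 7.67%, and tails of adenosine alone 4.46, 5.18, 6.50 and 5.36%. For uridine the mean difference was 2.42 points, against a median of -0.067 over 362 miRNAs, with quartiles of -0.831 and 0.240. The difference for adenosine was not compared with other miRNAs. The share ending at the RefSeq 3′ end without a tail was 54.6, 54.4, 42.0 and 50.0%. The libraries of 18-month-old mice were nearly as far apart in this share (SD 5.61 points, n = 2) as the means of the ages (54.5 and 46.0%).

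miR-106b-5p differed in the opposite direction. Its tailed share was 19.2, 18.2, 15.2 and 16.0%, lower in both 18-month-old libraries (difference -3.14 points, exact permutation p = 0.333). An added base with the same letter as the hairpin counted as templated, as with an adenosine after the RefSeq form of miR-106b-5p. Tailed shares are therefore not fully comparable between members. For miR-25-3p the tailed share was 9.70, 7.33, 9.09 and 8.99%, with overlap. Its RefSeq 3′ end share was 73.3, 73.8, 69.8 and 70.9%, lower in both 18-month-old libraries (difference -3.17 points). Over 362 miRNAs the median difference in the RefSeq 3′ end share was -1.15 points, with quartiles of -3.70 and 1.48, and 136 were above 0. The value of miR-25-3p lay within these quartiles. Of the tested miR-93-5p sequences with a tail, 8 of 9 had a log2 change above 0 (median 0.50), and of those of miR-106b-5p 8 of 14 (median 0.05). Over all miRNAs 53.8% of tested tailed sequences did, with a median of 0.05. Of the miR-93-5p sequences with any 3′ end that were tested and placed, 13 of 17 were above 0 (median 0.26). Over all miRNAs 49.5% of 7186 such sequences were above 0, with a median of -0.0055. Sequences of 1 miRNA come from the same libraries and are not replicates.

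**Figure D4:**
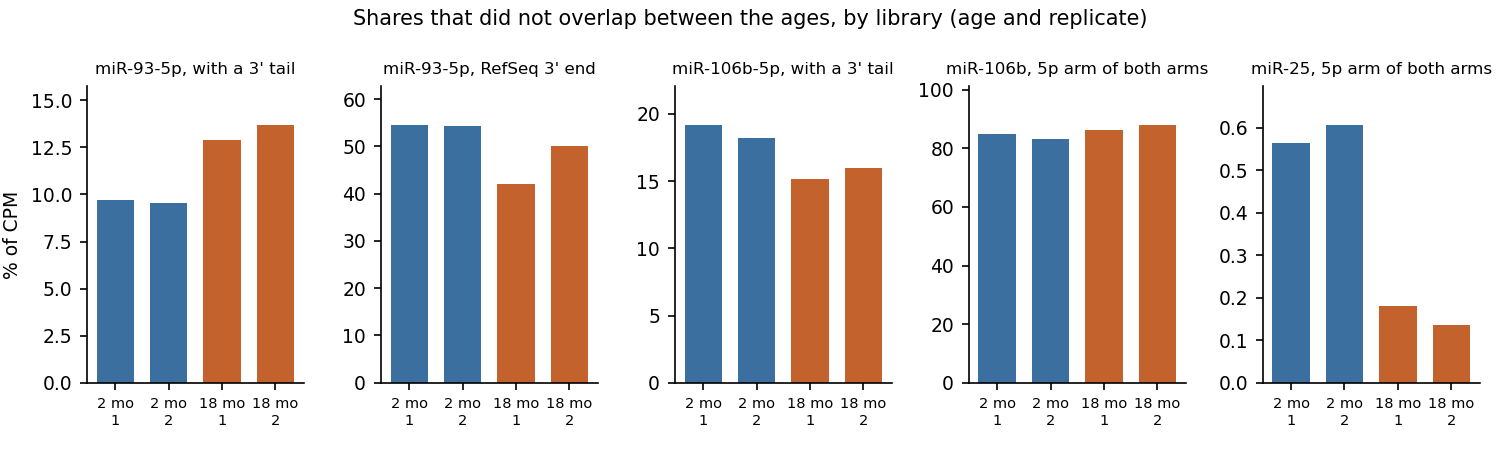
Shares in percent of CPM for each library, chosen for the plot because the ages did not overlap, with bars from 0 and a separate scale in each panel. The tailed share of miR-93-5p lies at 9.53 to 9.72% in 2-month-old and 12.9 to 13.7% in 18-month-old libraries, while that of miR-106b-5p and the 5p share of miR-25 lie lower at 18 months.

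The deposited 6mer seed viability, the mean survival of 3 mouse cell lines given a short RNA with that seed, set the guides apart from the passengers. The shared seed of miR-106b-5p and miR-93-5p scored 84.4% and that of miR-25-3p 86.2%. The seeds of miR-93-3p, miR-25-5p and miR-106b-3p scored 59.0, 35.2 and 24.0%, so the seed with the lowest score among these arms was on the passenger of miR-106b. Weighted by CPM, the mean over the cluster was 81.4, 81.5, 81.7 and 81.7%, and over all sequences 57.7, 57.9, 58.1 and 58.4%. The difference between the ages in the cluster was 0.256 points, without overlap (exact permutation p = 0.333, the smallest possible), and over all sequences it was 0.436 points, also without overlap. Reads of miR-25-3p that started 1 base late and so had another seed (viability 62.6%) made up 2.58% of that miRNA.

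The cluster carried most of the reads with the seed of miR-106b-5p and miR-93-5p. Of all CPM with this 6mer seed, the members held 79.7, 76.9, 84.5 and 80.5%. miR-93-5p had a mean of 48.8% and miR-106b-5p of 31.6%, followed by miR-17-5p with 12.1% and miR-20a-5p with 6.57%, both of the paralogous cluster. For the seed of miR-25-3p the cluster was not the main source. miR-25-3p held 20.8, 21.7, 26.7 and 25.4%, while miR-92b-3p had a mean of 37.2%, miR-92a-3p of 24.8% and miR-32-5p of 13.4%. These miRNAs are shown with the seed in capitals, since they differ from the members outside it.
miR-17-5p: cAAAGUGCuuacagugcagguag
miR-20a-5p: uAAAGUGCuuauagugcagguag
miR-92a-3p: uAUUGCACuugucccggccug
miR-92b-3p: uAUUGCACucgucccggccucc
miR-32-5p: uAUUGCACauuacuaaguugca
miR-93-5p and miR-17-5p were identical at 19 of 23 bases, and miR-25-3p and miR-92a-3p at 18 bases.

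The miRNAs with these seeds and the others of the paralogous clusters made up a list of 21 names, of which 17 had a row in the table and 9 passed the filter. Of these, 2 were called, both lower at 18 months, against 16.2% of all miRNAs. miR-19b-3p, a guide of the miR-17 to miR-92a cluster, had 721, 785, 471 and 540 CPM (log2 change -0.58, SE 0.21, limma, adjusted p = 0.266). miR-17-3p, a passenger, had 45.5, 33.9, 19.6 and 26.4 CPM (log2 change -0.76, SE 0.29, limma, adjusted p = 0.266). The ages overlapped for neither of them. After rescaling none of the 9 was called by limma and, likewise, edgeR and DESeq2 called neither of these miRNAs. With 1 library left out, miR-19b-3p kept its call only without the first 2-month-old library (-0.64), and miR-17-3p lost its call without either replicate 1 (-0.56 each). The median log2 change of the 9 was -0.47 (-0.26 after rescaling), and only that of miR-92a-3p was above 0 before rescaling.

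**Figure D5:**
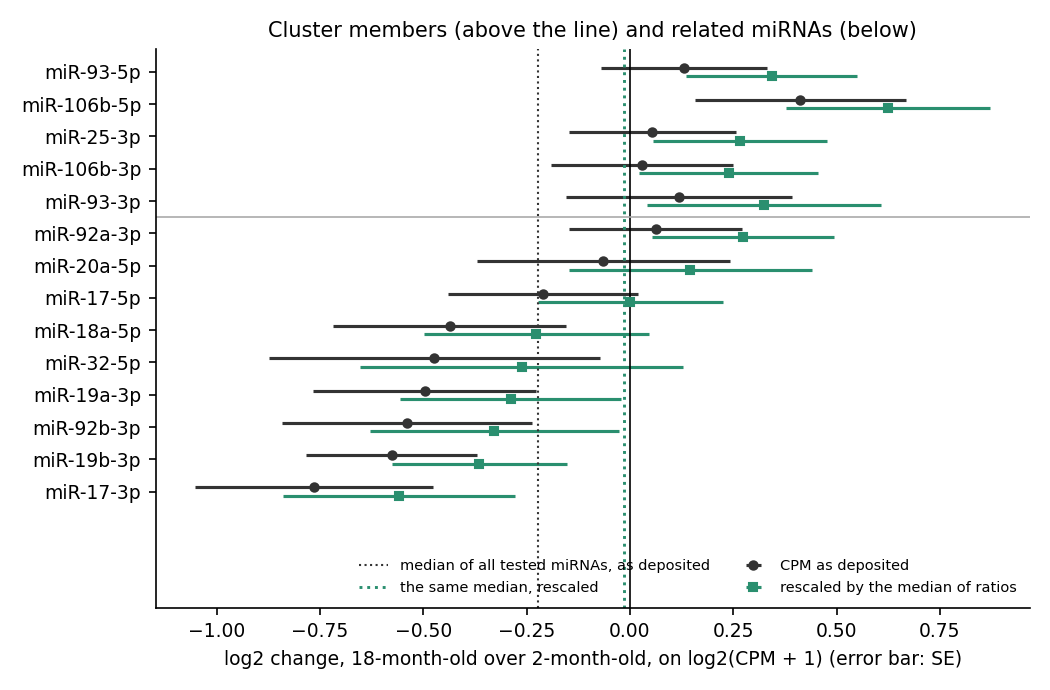
Log2 change between the ages on the log2(CPM + 1) scale with its SE from limma, for the 5 members and the 9 tested related miRNAs, as deposited (circles) and rescaled (squares), with dotted lines at the median of all tested miRNAs. The members lie above both medians, from 0.03 to 0.41 as deposited, and rescaling moves every value to the right by about the shift of the median.

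The guides of both clusters were also set against each other within each library. The 3 guides of the cluster summed to 2339, 2014, 2430 and 2544 CPM, and the guides miR-17-5p, miR-20a-5p and miR-92a-3p to 990, 1082, 966 and 1078 CPM. The ratio was 2.36, 1.86, 2.52 and 2.36, with the second 2-month-old library lowest and overlap between the ages (exact permutation p = 0.667 for the log2 ratio). These are the guides that share a seed with members. This overlap rests on that choice. With the other guides of the paralogous cluster (miR-18a-5p, miR-19a-3p and miR-19b-3p) added, which was chosen after seeing the data, the ratio was 1.26, 0.991, 1.59 and 1.45, without overlap (exact permutation p = 0.333, the smallest possible). The difference in the log2 ratio was 0.22 with 3 guides and 0.44 with all 6, and 0.43 with miR-19b-3p alone added. miR-17-5p itself had 306, 276, 219 and 287 CPM, and miR-92a-3p had 551, 653, 643 and 610 CPM. miR-20a-5p had 134, 153, 104 and 181 CPM.

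The miRNAs whose profile over the 4 libraries was closest to the summed cluster were miR-26b-5p, miR-700-3p and miR-1249-3p. Likeness was the Euclidean distance of centred log2(CPM + 1) values over 4 libraries, among 269 miRNAs with a mean of at least 100 CPM. The distances were 0.125, 0.157 and 0.187, against a median of 0.615. miR-26b-5p had 2511, 2198, 2821 and 2611 CPM, the same order of libraries as the cluster but for the 18-month-old pair. None of these 3 miRNAs was called.

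The table names miR-93 reads in a way that matters for counts by RNA class. All 109 sequences of miR-93-5p and miR-93-3p carried a transcript of Mcm7, an mRNA, in the column that assigns reads to small RNAs of any kind, beside their miRNA name. All 184 sequences of miR-106b and miR-25-3p carried a miRNA there. Counted by that column alone, miR-93 would make up 1.93 to 2.64% of the CPM under mRNA names.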

How the data were processed

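Argonaute complexes were pulled down from lysates with a GW182 peptide on anti-FLAG beads, RNA of 19 to 35 nt was extracted from gels, and small RNA libraries were sequenced on an Illumina HiSeq instrument. The authors trimmed the reads (Trim Galore is named in the submitters' processing notes, its version not given in the sources used here), compiled them by sequence, removed rare reads and matched the rest to lists of mouse miRNAs and other small RNAs with the SPOROS pipeline. The deposited values are CPM per sequence and library, scaled to the same read total in each library. The deposited 6mer seed viability is a score in percent of control.

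CPM were summed by miRNA name. Whole reads were recovered in 100% of values (tolerance 0.0011 CPM). limma 3.58.1 with an intensity trend (R 4.3.3) was fitted to log2(CPM + 1), 2 libraries against 2, for miRNAs whose mean reached 10 CPM and sequences whose mean reached 1 CPM. The log2 changes understate those of low values. The methods name no test for these rows. Values per library were compared by exact two-sided permutation. The median of ratios was that of DESeq2's size factors. Reads were placed by their first 15 bases in the RefSeq hairpin, and the longest matching start was taken as templated. Data were also simulated with 4-fold changes and a dispersion of 0.05. In them limma recovered 100% of 114 changed miRNAs (456 tested) and 95.5% of 200 changed sequences (14287 tested). Smaller changes were not simulated, so this recovery does not tell how often changes as small as those of the members would be found.

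Alternatives were a block for the replicate number, other pseudocounts (0.1 and 5), other filters (none, 100 CPM for miRNAs, 10 CPM for sequences), limma without trend, edgeR 4.0.16 and DESeq2 1.42.0 on recovered reads, rescaling, reads of 19 to 25 nt only, and each library left out.

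The members and lists were chosen with earlier results of these data known. Named were the 5 members and miR-25-5p, the 3 most abundant sequences of each member, member sequences with an unadjusted p under 0.05 among the 5 largest differences in CPM, the related list and the 3 nearest profiles.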

Additional observations from a re-analysis of the deposited data

Results flagged for a closer look

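Some reads at the hairpins carried no miRNA name. The 114 sequences without a miRNA name that lay within 1 mismatch of any of the 3 hairpins summed to 1014 reads. They had 23.7, 18.4, 26.0 and 31.0 CPM, and 12 of them were exact parts of a hairpin. The most abundant sequence under the Mcm7 transcript that had no miRNA name and over 1 mismatch to each hairpin had 212 reads, at 3.15, 11.9, 2.18 and 2.32 CPM, highest in the second 2-month-old library.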

How the results depend on the processing

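All 5 members kept a log2 change above 0 in every fit on all 4 libraries that tested them. The count of members called was 1 with edgeR, DESeq2 or rescaling and 0 otherwise. Without a filter 8 member sequences were called, of 293 tested, against 3327 of all 85704 sequences. Over all miRNAs 125 were called without a filter and 43 at 100 CPM or more, against 74. Over all sequences the counts were 3327 without a filter, 424 at 10 CPM or more and 941 with DESeq2, against 1443. The filters change how many are tested, and the cause of the other shifts was not tested. With edgeR, edgeR with the block, DESeq2 and rescaling, the log2 change of miR-17-5p was above 0 (0.021, 0.012, 0.010 and 0.0013), as was that of miR-20a-5p (0.20, 0.16, 0.19 and 0.15). That of the shortened miR-106b-5p form was 2.3e-05 with DESeq2 and 0.00064 after rescaling.

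With 1 library left out, 0 members, 0 to 4 member sequences (0 without the second 2-month-old library), 53 to 77 miRNAs and 1055 to 1389 sequences were called. An age left with 1 library was assumed to vary like the other. Log2 changes that crossed 0 were those of miR-25-3p (-0.022 to 0.13), miR-93-3p (-0.13 to 0.37), miR-106b-3p (-0.11 to 0.17), miR-20a-5p (-0.46 to 0.33), miR-92a-3p (-0.060 to 0.19), miR-32-5p (-0.95 to 0.0050) and miR-700-3p (-0.069 to 0.35). So did those of the form of miR-106b-3p 1 base shorter (-0.16 to 0.46), its RefSeq form (-0.66 to 0.53), the shortened form of miR-106b-5p (-0.14 to 0.11), the RefSeq form of miR-25-3p (-0.090 to 0.060) and that 1 base shorter (-0.26 to 0.20), and the longer and RefSeq forms of miR-93-3p (-0.22 to 0.53 and -0.076 to 0.60). The 5p share of miR-93 differed by -0.51 to 0.47 points, the RefSeq 5′ end share of the cluster by -0.24 to 0.16 and the tailed share of miR-25-3p by -0.66 to 1.71. The 5p share of miR-106b 2.40 to 4.12 points higher and the tailed share of miR-93-5p 3.27 to 4.08 points higher.

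Same-numbered libraries come from mice of different ages and share only a number (correlation of their deviations 0.180 over miRNAs and 0.0356 over sequences). With the replicate number as a block 79 miRNAs and 1530 sequences were called, 0 members and 3 member sequences among them. In the related list miR-17-3p was then not called (adjusted p = 0.297) and miR-92b-3p was (adjusted p = 0.280), both from limma, and edgeR with the block did not call miR-106b-5p (log2 change 0.64, adjusted p = 0.292). The block with edgeR was chosen after seeing the data. Matching whole reads to the hairpin was not run for tails. With 2 libraries per age, no permutation p can pass 0.05, and depth limits miR-25-5p (7 to 39 reads) most.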
